A study of Homo sapiens with 2 samples.

Results

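The nuclear genes for the subunits of oxidative phosphorylation were examined in H9 human embryonic stem cells. They were chosen by symbol: autosomal protein-coding genes of the RefSeq gene table (GRCh38.p14) whose names start with NDUFA, NDUFB, NDUFC, NDUFS, NDUFV, SDH, UQCR, ATP5, COX4I, COX5, COX6, COX7 or COX8, without the NDUFAF and SDHAF assembly factors. The rule found 85 of 19126 autosomal protein-coding genes, of which 36 belong to complex I, 4 to complex II, 9 to complex III, 16 to complex IV and 20 to complex V. Another 3 genes with such names (NDUFA1, NDUFB11 and COX7B) lie on X and fall outside it, and NDUFA4 and NDUFA4L2 were not analysed here. The assay was ATAC-Me, in which transposase cuts open chromatin and the DNA of the same fragments is converted, so that CpG methylation is read where chromatin was accessible. There was 1 group, undifferentiated H9 pluripotent stem cells grown on Matrigel in mTeSR medium, with no treatment, no genetic change and no second condition named in the labels, and it had 2 replicates. Whether these are separate cultures is not in the labels, and their spread may be technical only.

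Oxidative phosphorylation runs on the inner mitochondrial membrane. Complexes I and II take electrons from NADH and from succinate, complex III passes them on through cytochrome c, complex IV hands them to oxygen, and complex V, the ATP synthase, uses the proton gradient built on the way to make ATP. Most subunits are encoded in the nucleus and are needed in nearly every cell, while several subunits of complex IV have a second gene that is used mainly in muscle, lung or testis.

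The replicates held 28475863 and 51406146 CpG reads on autosomes (replicates 1 and 2), covering 31.6% and 59.0% of 27852739 listed CpGs, and 46884 autosomal peaks of open chromatin came as 1 list for the group. Over all CpG reads 32.3% and 46.0% were methylated. Of the 7 pluripotency markers checked, 6 had a peak within 1000 bp of the start; POU5F1 had no read, NANOG, SOX2, LIN28A, SALL4 and CRIPTO were under 20% methylated, and DNMT3B read 43.9% and 49.7% at the start used. Among 5 fibroblast markers, COL1A1 (37.5% and 19.5%) and COL1A2 (4.68% and 1.76%) had a peak, so COL1A2 read as low as most pluripotency markers. COL3A1, DCN and LUM had no peak and fewer than 20 reads in at least 1 replicate, so their methylation is not given.

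A start was placed for 81 of the 85 genes. For 68 it came from the RefSeq promoter table and for 13 it was the CpG-rich end of the gene, where the CpG count within 500 bp was at least 2 times that at the opposite end. Genes for which no start was placed include ATP5MF, ATP5MGL and UQCRHL. Start methylation is the percent of CpG reads within 500 bp of the start that were methylated, given where each replicate had at least 20 reads. It was measured for 77 of the 81 genes, against 14113 of 17994 genes of the whole table. The 4 others were NDUFA6 and COX8C, without a read, and COX6A2 and COX7A1, with 15 reads each in replicate 1. NDUFC2 and the readthrough gene NDUFC2-KCTD14 share a start and hence all values, and the start of ATP5MF-PTCD1 is that of the ATP5MF gene itself.

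The starts of the common subunit genes were unmethylated and mostly open, and the starts methylated over 80% belonged to complex IV genes of muscle, lung or testis. Under 20% methylation in both replicates was read at 75 of the 77 measured genes (97.4%), against 92% of all measured genes. Over 80% in both replicates was read at 2 of 77 (2.6%), COX4I2 and COX7B2, against 2.55% of all measured genes. The median start of the subunit genes was at 0.590% and 1.48% (mean 1.04% ± 0.633, SD, n = 2), against 0.648% and 1.63% over all measured genes (1.14% ± 0.697, SD, n = 2). Both shares and both medians lie close to those of all genes, so low methylation is not particular to these genes.

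A peak whose summit fell no more than 1000 bp from the start was listed for 70 of 81 subunit genes (86.4%), against 64.8% of all genes with a start. Leaving out starts without any read, the shares were 70 of 79 (88.6%) and 68.0%. The peaks come as a single list without replicate error, so this difference was not tested. The median peak signal, the caller's own value, was 1364 at the subunit genes (range 207 to 6628) and 1275 at all genes with a peak. Where a start had more than 1 peak, as at 3 subunit genes, the strongest was taken. The summit lay at a median of 76 bp upstream of the start in the subunit genes and 80 bp in all genes. It fell within 200 bp of the start in 59 of the 70 (84.3%) and in 72.8% of all genes with a peak, and upstream of it in 63 (90%) and in 80.9%.

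**Figure D1:**
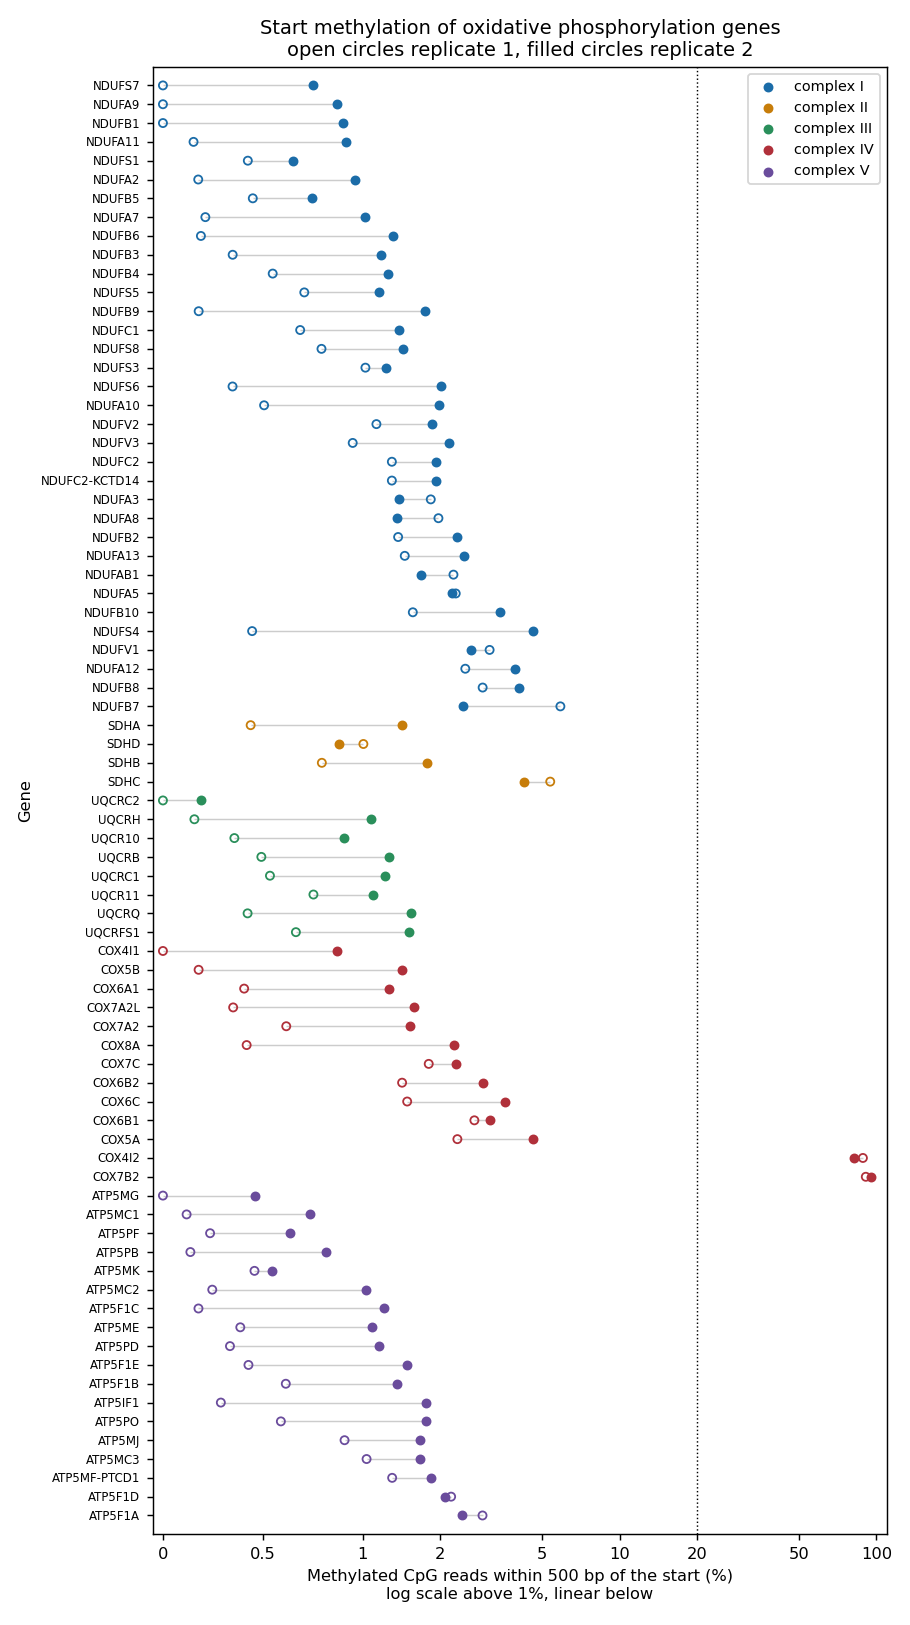
Start methylation (horizontal axis, percent of CpG reads within 500 bp, log scale above 1% and linear below) of the 77 measured subunit genes (vertical axis), with open circles for replicate 1, filled circles for replicate 2 and colours for the complexes. The 75 genes left of the dotted line at 20% reach at most 5.88%, and COX4I2 and COX7B2 lie above 80%.

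In complex I, the NADH dehydrogenase, all 34 measured genes were under 20%. Their median was 0.751% in replicate 1 (range 0 to 5.88%) and 1.56% in replicate 2 (0.653% to 4.61%), and 30 of 35 genes with a start had a peak. NDUFS7, an iron-sulfur subunit, had 0% of 672 reads and 0.751% of 1331 reads. NDUFV1, which carries the NADH binding site, had 3.12% and 2.65%, and NDUFS4, an accessory subunit of the same module, had 0.446% and 4.61%. The highest value among the common genes was 5.88% in replicate 1 at NDUFB7, an accessory subunit of the membrane arm, which read 2.46% in replicate 2. The upper bounds of their 95% Wilson intervals, which cover counting error only, were 9.48% and 4.02%.

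The 4 genes of complex II, succinate dehydrogenase, all had a peak. SDHA, the flavoprotein, read 0.439% and 1.42%. SDHB, the iron-sulfur subunit, read 0.795% and 1.78%. SDHD, a membrane anchor, read 1.01% and 0.883%. SDHC, the other membrane anchor, stood above these with 5.37% and 4.24%, and its values do not overlap theirs.

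Complex III, the cytochrome bc1 complex, had the narrowest range. Its 8 genes measured under the symbol rule lay between 0 and 0.753% in replicate 1 and between 0.193% and 1.54% in replicate 2. All 8 had a peak. UQCRC2, a core subunit, was the lowest subunit gene of all with 0 of 507 reads methylated, which allows up to 0.752% (95% Wilson), and 0.193% of 519 reads. UQCRFS1, the Rieske iron-sulfur protein, read 0.666% and 1.52%, within the range of the other genes of the complex.

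In complex V, the ATP synthase, the 18 measured genes had medians of 0.408% and 1.29% (ranges 0 to 2.93% and 0.461% to 2.44%), and 17 of 18 had a peak. ATP5F1B, the catalytic beta subunit, read 0.615% and 1.36%, and ATP5F1A, the alpha subunit, read 2.93% and 2.44%. The genes ATP5MC1, ATP5MC2 and ATP5MC3 encode the same mature c subunit of the rotor. ATP5MC1 read 0.118% and 0.735%, ATP5MC2 0.247% and 1.03%, and ATP5MC3 1.04% and 1.67%. The order of these 3 was the same in both replicates. Their peak signals were 3820, 2592 and 716, in the opposite order. ATP5IF1, the inhibitor that keeps the enzyme from running backwards, read 0.290% and 1.76%.

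The 10 common genes of complex IV, cytochrome c oxidase, had medians of 0.518% and 1.93% and all had a peak. COX6B1 was the highest in replicate 1 (2.72%) and COX5A in replicate 2. COX5A read 2.34% and 4.59%, and its partner subunit COX5B read 0.179% and 1.42%. COX7A2L, a relative of the COX7A subunits that acts in supercomplex assembly, read 0.351% and 1.59%.

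Peak signal spanned a wide range among the subunit genes. The strongest peaks lay at NDUFA11, an accessory subunit of complex I (6628), ATP5MC1 (3820) and ATP5F1B (3137). The peak of NDUFA11 was 1514 bp wide with its summit 778 bp upstream, and the start of VMAC, a neighbouring gene, lies 304 bp from that summit, so signal of either gene cannot be told apart. The weakest peaks lay at NDUFS4 (207, 177 bp wide), NDUFA9 (296) and NDUFB1 (356), accessory subunits of complex I, and the lowest signal in the whole list was 200. NDUFA9 read 0% and 0.870%, and NDUFB1 0% and 0.901%, so weak peaks also stood at unmethylated starts. The medians were 1220 for complex I, 1107 for II, 1436 for III, 1346 for IV and 1587 for V, and the ranges of the complexes overlap.

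**Figure D2:**
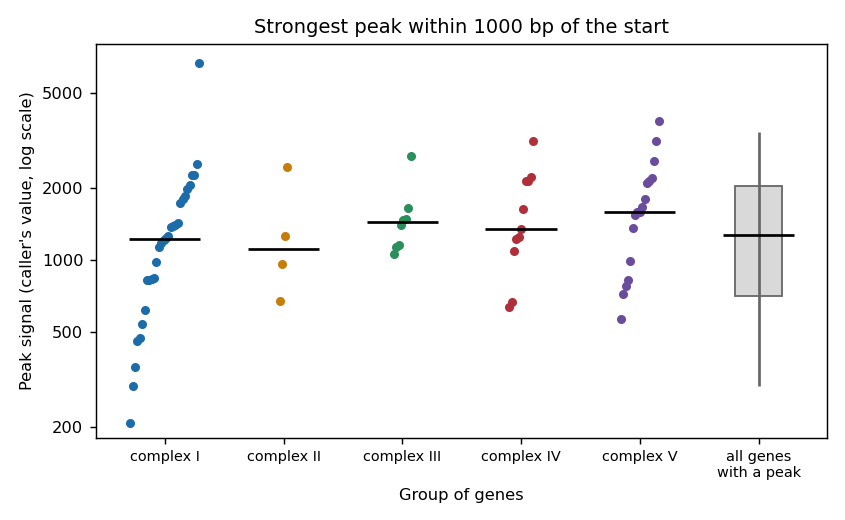
Signal of the strongest peak within 1000 bp of the start (vertical axis, the caller's value, log scale) for each subunit gene with a peak, by complex, with black lines for medians. The box for all genes with a peak spans its middle 50% and the line its 5th to 95th percentile; NDUFA11 (6628) stands above that line and NDUFS4 (207) below it.

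Among the complex IV isoforms used mainly in muscle, lung or testis, COX4I2, COX7A1 and COX7B2 read as methylated in both replicates, COX6A2 in replicate 2, and COX6B2 in neither. The first 4 had no peak, while the common partners were unmethylated and open. Of 9 such isoforms listed over all complexes, 8 were in the gene table and 6, all of complex IV, had a start. A peak was found at 1 of the 6 isoforms (COX6B2) and at 5 of the 5 common partners. COX8C, of testis, had no read at any of 57 CpGs, so 5 isoforms could be read at all. COX7B2 has its partner on X and is given without one. Reads were few at the closed starts, so each value is given with its reads and 95% Wilson interval. Since a fragment counts at each CpG it covers, these intervals are too narrow.

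COX4I2 is the lung form of subunit 4. Its start (position 31637912 of chromosome 20, plus strand) was set at the CpG-rich end of the gene, not taken from the promoter table. COX4I2 was methylated in 88.6% of 35 reads in replicate 1 (74.0% to 95.5%) and in 81.9% of 94 reads in replicate 2 (72.9% to 88.4%). Its common partner COX4I1 had 0% of 468 reads and 0.872% of 1032 reads, with a peak signal of 635. The difference was 84.8 ± 5.32 points (SD, n = 2), far beyond the spread between replicates. The nearest summit to COX4I2 lay 23755 bp away.

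COX7B2, a testis form of subunit 7B, was methylated in 90.9% of 22 reads (72.2% to 97.5%) and in 95.2% of 21 reads (77.3% to 99.2%), and its nearest summit lay 22895 bp away. The start of COX7A1, the muscle form of subunit 7A, was likewise set at the CpG-rich end of the gene. COX7A1 was methylated in all of 15 reads (79.6% to 100%) and in 90.5% of 42 reads (77.9% to 96.2%). Its partner COX7A2 read 0.617% and 1.53% with a peak signal of 1346. With the minimum lowered to 10 reads, COX7A1 exceeded COX7A2 by 94.2 ± 7.38 points (SD, n = 2).

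COX6A2, the muscle and heart form of subunit 6A, was the isoform whose replicate values lay furthest apart. It read 26.7% of 15 reads in replicate 1 (10.9% to 52.0%) and 90.6% of 85 reads in replicate 2 (82.5% to 95.2%). The 15 reads of replicate 1 lay at 15 CpGs and may come from few fragments. No difference between the replicates is therefore read from these intervals. Its partner COX6A1 read 0.407% and 1.26% with a peak signal of 2135. The difference of 57.8 ± 44.6 points (SD, n = 2; 26.3 and 89.3 points in the replicates) was positive in both replicates but of uncertain size.

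COX6B2, the testis form of subunit 6B, was the exception and resembled its common partner in start methylation. It read 1.42% of 281 reads and 2.93% of 614 reads, and COX6B1 read 2.72% of 294 reads and 3.13% of 640 reads. The difference of −0.746 ± 0.781 points was within the spread between replicates (SD, n = 2). The COX6B2 peak (signal 1091, positions 55353846 to 55354416 of chromosome 19) had its summit 530 bp downstream of the start, inside the gene, while that of COX6B1 (signal 1220) lay 49 bp upstream. The COX6B2 peak does not reach the COX6B2 start at position 55354719. The start of GARIN5B lies 189 bp upstream of that start on the other strand, 719 bp from the summit. Over both replicates, the CpG at the COX6B2 start had 6 reads and a CpG 486 bp downstream had 54. Many reads behind the start methylation of COX6B2 thus lie near the internal peak. Which gene this peak belongs to was not tested.

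The closed isoforms with a printed promoter have few CpGs before the start. The 250 bases before the start are printed from RefSeq (GRCh38.p14), 5′ to 3′ on the strand of the gene with every CpG in capitals, for the isoforms with an entry in the promoter table and for the partners they are set against. COX6A2 (chr16:31428361-31428610, minus strand) has 1 CpG there and COX7B2 (chr4:46909246-46909495, minus strand) has 5. COX6B2 (chr19:55354720-55354969, minus strand) has 26, COX6A1 (chr12:120437863-120438112, plus strand) has 19 and COX6B1 (chr19:35648073-35648322, plus strand) has 14.
COX6A2: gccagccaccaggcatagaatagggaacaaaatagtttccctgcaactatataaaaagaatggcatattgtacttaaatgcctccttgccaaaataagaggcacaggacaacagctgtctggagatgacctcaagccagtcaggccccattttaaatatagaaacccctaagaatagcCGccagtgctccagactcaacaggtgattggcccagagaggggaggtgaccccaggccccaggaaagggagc
COX6A1: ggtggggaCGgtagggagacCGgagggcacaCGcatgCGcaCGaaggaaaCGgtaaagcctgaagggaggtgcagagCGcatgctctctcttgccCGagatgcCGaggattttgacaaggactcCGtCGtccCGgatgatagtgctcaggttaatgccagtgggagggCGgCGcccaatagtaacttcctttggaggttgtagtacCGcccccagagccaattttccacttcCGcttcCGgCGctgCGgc
COX7B2: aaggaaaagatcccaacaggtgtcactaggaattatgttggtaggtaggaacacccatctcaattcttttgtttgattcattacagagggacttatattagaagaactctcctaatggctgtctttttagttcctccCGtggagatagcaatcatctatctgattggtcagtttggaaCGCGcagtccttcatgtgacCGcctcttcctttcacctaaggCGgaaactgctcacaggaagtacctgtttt
COX6B2: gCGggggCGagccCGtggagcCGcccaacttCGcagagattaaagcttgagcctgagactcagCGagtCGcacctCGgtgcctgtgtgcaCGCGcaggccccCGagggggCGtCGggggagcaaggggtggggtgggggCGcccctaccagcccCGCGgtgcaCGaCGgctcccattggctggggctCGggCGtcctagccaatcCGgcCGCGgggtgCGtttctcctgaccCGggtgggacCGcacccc
COX6B1: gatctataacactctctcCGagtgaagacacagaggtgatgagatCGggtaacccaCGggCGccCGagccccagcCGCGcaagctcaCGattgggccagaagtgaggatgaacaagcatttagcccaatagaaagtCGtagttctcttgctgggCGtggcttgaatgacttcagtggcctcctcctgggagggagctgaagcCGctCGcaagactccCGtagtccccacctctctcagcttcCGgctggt

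Within these 250 bases the isoforms closed in these cells had hardly any reads. The single CpG of COX6A2 had 0 reads in replicate 1 and 5 in replicate 2, of which 4 were methylated, and the 5 CpGs of COX7B2 had 0 reads and 3 reads, all methylated. The 19 CpGs of COX6A1 had 0.181% of 553 reads and 1.21% of 1077 reads methylated. The 26 CpGs of COX6B2 read 2.70% of 74 reads and 5.11% of 137 reads, and the 14 of COX6B1 0.855% of 234 reads and 1.24% of 482 reads. Over the 500 bp to each side in which start methylation was read, the CpG counts did not differ in 1 direction: 41 in COX4I2 and 117 in COX4I1, 62 in COX6A2 and 69 in COX6A1, 55 in COX7A1 and 44 in COX7A2. Read depth was lower in each of these closed isoforms than in its partner, and its part in the methylation difference was not tested.

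**Figure D3:**
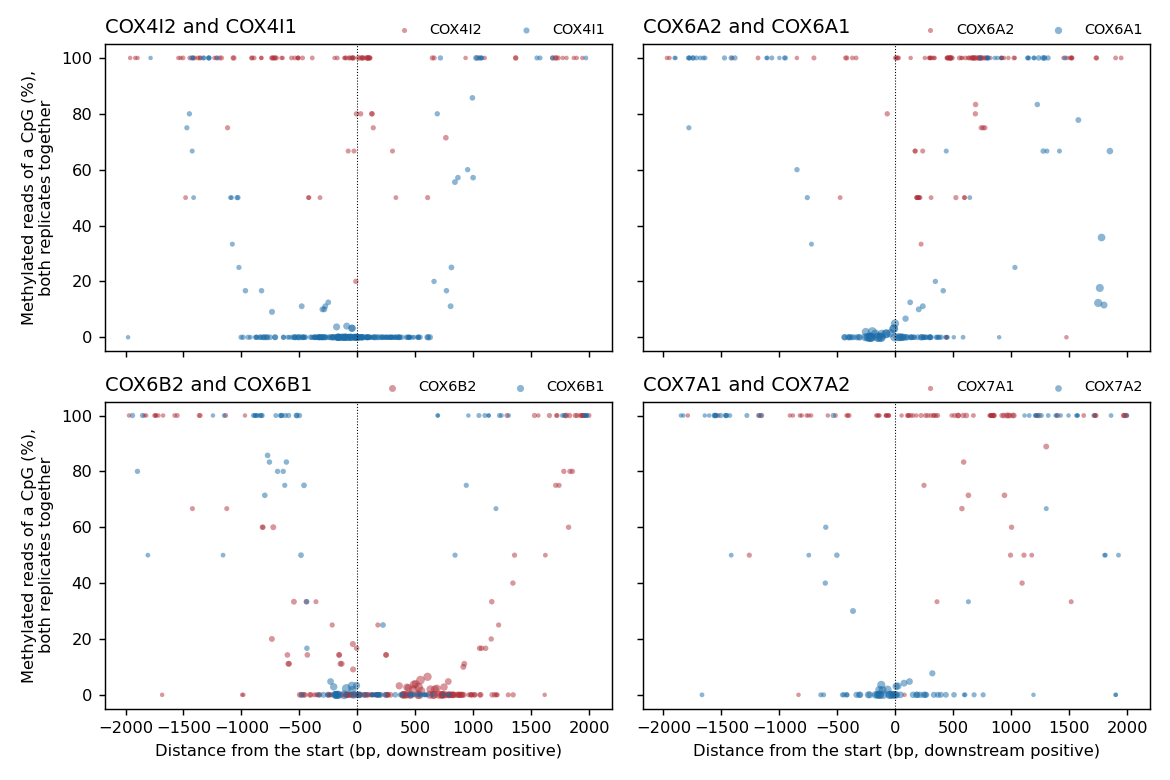
Methylation of each CpG (vertical axis, percent of the reads of both replicates together) by distance from the start (horizontal axis, bp) for 4 tissue-specific isoforms (red) and their common partners (blue), with larger points for more reads. Most covered CpGs of COX4I2, COX6A2 and COX7A1 near the start are methylated where their partners are near 0%, and COX6B2 is near 0% like COX6B1.

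Some common subunit genes were unmethylated without a peak. Under 20% in both replicates without a peak within 1000 bp were 5 of 77 measured genes (6.49%), with 4 distinct starts, against 11.7% of all measured genes. ATP5MG, subunit g of the ATP synthase, read 0% of 218 reads, which allows up to 1.73% (95% Wilson), and 0.461% of 434 reads, and its nearest summit lay 14344 bp away. NDUFC2, with NDUFC2-KCTD14 at the same start, read 1.30% of 231 reads and 1.92% of 624 reads, with the nearest summit 33478 bp away. NDUFA3 read 1.84% of 163 reads and 1.39% of 216 reads, with 28 of its 70 CpGs without a read. NDUFS6, an accessory subunit that binds zinc, read 0.348% of 287 reads and 2.02% of 595 reads, and the nearest summit lay 1459 bp upstream, 111 bp from the start of MRPL36. These starts had 2.33 to 3.63 reads per CpG in replicate 1 and 3.09 to 8.79 in replicate 2, against medians of 8.95 and 14.5 over the measured subunit genes. They were thus covered, though less than most, and NDUFA3 only in part. The 38 CpGs from 1000 to 2000 bp downstream of NDUFA3 had no read in either replicate, so its lack of a peak says little. NDUFA6 and COX8C differ from these 4 starts. Their own starts lie in stretches of 165778 bp (2727 CpGs) and 530746 bp (8171 CpGs) without a read in either replicate. The lack of a peak thus says nothing about NDUFA6 or COX8C.

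Many subunit genes share their promoter region with another gene. A protein-coding start on the other strand lay within 1000 bp of 25 of 81 subunit genes (30.9%), against 12.9% of all genes with a start. For 24 of the 25 the distance was at most 500 bp. Partners include MRPL47, a mitochondrial ribosomal protein (148 bp from NDUFB5), TIMM8B, a mitochondrial import chaperone (117 bp from SDHD), RPS28, a ribosomal protein (121 bp from NDUFA7), and GABPA, a regulator of nuclear respiratory genes, whose start lies 82 bp inside ATP5PF. All 25 had a peak, with the summit between both starts in 19. Of the 56 subunit genes without such a neighbour, 45 had a peak (80.4%), against 60.9% of all such genes, and among all genes with a divergent start the share was 91.0%. The higher share of open starts among the subunit genes was thus also seen without the paired genes. At UQCR10, of complex III, 2 peaks were listed. The stronger had its summit 370 bp upstream, 8 bp from the start of ZMAT5. The other summit lay 7 bp upstream of the UQCR10 start.

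Away from the start the common subunit genes read as more methylated than other genes, most of all on the downstream side. Between 1000 and 2000 bp downstream of the start, the 74 common genes together read 73.8% of 927 reads and 80.9% of 2271 reads (77.3% ± 5.02, SD, n = 2), against 17.2% and 27.5% in 14036 other genes (22.4% ± 7.31, SD, n = 2). The difference of 55.0 ± 2.29 points was far beyond the spread between replicates; with 2 replicates no permutation test could go below p = 0.5, so none is given. The 500 bp downstream of the start went the other way by a small amount, at 0.776% in the subunit genes and 1.86% in the other genes (difference −1.09 ± 0.303 points, SD, n = 2). From 500 to 1000 bp downstream the subunit genes read 14.4% and 27.4%, against 5.42% and 8.44% in the other genes. Upstream, with reads pooled over genes in the same way, the difference was 4.60 ± 1.77 points from 1000 to 500 bp and 7.42 ± 1.54 points from 2000 to 1000 bp (SD, n = 2). Read depth differed as well: from 1000 to 2000 bp downstream the subunit genes had 0.710 and 1.74 reads per CpG, against 2.04 and 3.54 in the other genes. The subunit genes also had fewer CpGs per gene there, with 1.89 against 2.98 from 1000 to 1100 bp. From 1900 to 2000 bp the numbers were 1.62 and 1.74. The part of depth and of CpG number in the pooled difference was not tested.

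Gene by gene the subunit genes were also higher, on both sides of the start. Of the 74 common genes, 26 had at least 10 reads in each replicate between 1000 and 2000 bp downstream. Their medians were 89.8% and 89.0%, against 40.8% and 47.5% in 6997 other genes with as many reads. Values over 80% in both replicates were read at 17 of the 26 genes (65.4%), against 21.6% of the other genes. Among these genes with at least 10 reads only, the median number of CpGs there was 23.5 against 24. NDUFA13 read 100% of 17 reads and 100% of 23 reads, UQCR11 96.8% of 31 reads and 96.1% of 51 reads, and NDUFS7 92.6% of 27 reads and 94.9% of 79 reads. The genes differed from each other, since ATP5PD, the ATP synthase subunit d, stayed at 10.1% of 79 reads and 6.78% of 59 reads. COX6A1 was between these with 44.3% of 79 reads and 38.7% of 186 reads.

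Upstream, the medians over genes lay further apart than the pooled reads did. From 2000 to 1000 bp upstream, 34 common subunit genes reached 10 reads in both replicates, with medians of 86.7% and 88.0%, against 63.6% and 67.8% in 6166 other genes. Over 80% in both replicates were 20 of these 34 (58.8%), against 29.4% of the other genes. Under 20% in both were 8 of the 34 (23.5%), close to the 25.4% of the other genes. From 1000 to 500 bp upstream the medians were 22.8% and 28.0% in 48 subunit genes, against 7.58% and 9.68% in 8451 other genes. The subunit genes differed widely from each other here. NDUFS6 (0.273% and 1.45%) and NDUFA11 (1.43% and 8.54%) read low from 2000 to 1000 bp, where the starts of MRPL36 and VMAC lie. UQCRH (3.72% and 1.80%) and ATP5F1D (2.28% and 7.24%) were also among the low ones, and a part of neighbouring starts was not tested. NDUFA13 (90.9% and 97.1%) and NDUFB10 (94.2% and 92.8%) read high.

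**Figure D4:**
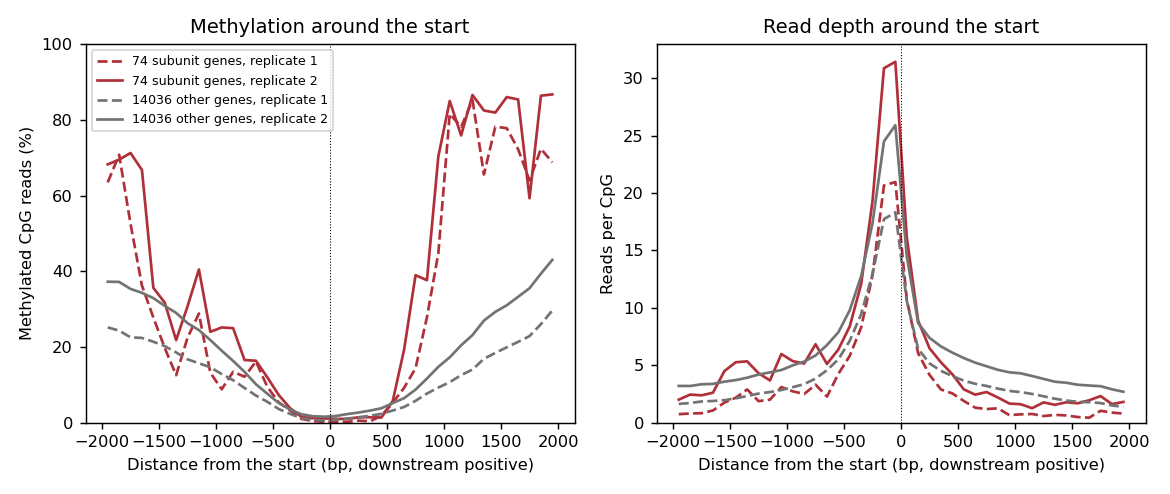
Methylated CpG reads (left, percent) and reads per CpG (right) in 100 bp bins from 2000 bp upstream to 2000 bp downstream of the start, for 74 common subunit genes (red) and 14036 other measured genes (grey), with dashed lines for replicate 1 and solid lines for replicate 2. Beyond 1000 bp downstream the red lines lie well above the grey ones.

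Motifs of the factors that are known to bind nuclear respiratory genes were read in the promoter table, which holds 250 bases before and 50 after each start for 68 of the subunit genes. NRF1, the ETS factor GABP and YY1 are regulators of these genes. The searched letters were GCATGCGC for NRF1, CCGGAAG for ETS factors, AAGATGGC for YY1, GGGCGG for SP factors and TATAAA for the TATA box, on both strands, and a match describes the letters only. The NRF1 core was found in 14 of 68 promoters of subunit genes (20.6%) and in 4.31% of all 15101 promoters. The ETS core was found in 20 (29.4%) against 14.7%, and the YY1 core in 12 (17.6%) against 4.01%. The SP core was found in 41 (60.3%) against 62.3%, and TATAAA in 6 (8.82%) against 9.15%, shares close to those of all promoters. The NRF1 matches were spread over complex I (NDUFA5, NDUFA6, NDUFA8, NDUFB4, NDUFS6 and NDUFS7), II (SDHB and SDHD), IV (COX5B and COX6A1) and V (ATP5F1C, ATP5MC2, ATP5ME and ATP5PF). Complex III had none, but only UQCR10, UQCR11, UQCRC1, UQCRC2, UQCRFS1, UQCRH and UQCRQ were searched, too few to set it apart.

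**Figure D5:**
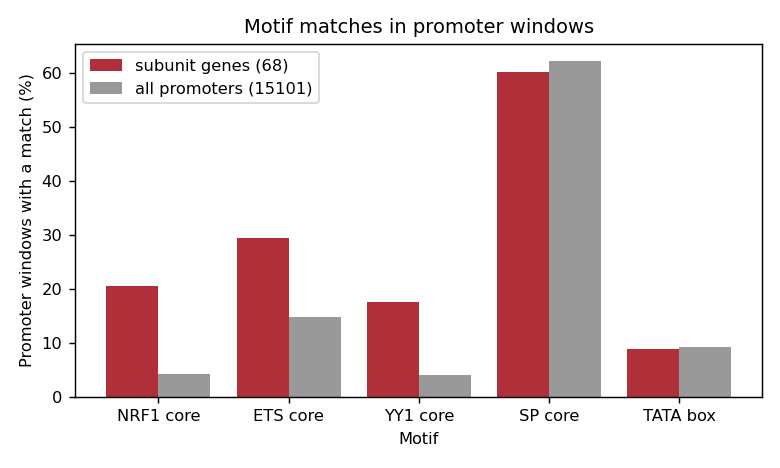
Share of promoter windows (vertical axis, percent) with at least 1 match to each motif on either strand, in 68 subunit genes (red) and in all 15101 promoters (grey). The NRF1 core stands at 20.6% against 4.31%, while the SP core stands at 60.3% against 62.3%.

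At least 1 of the NRF1, ETS and YY1 cores was present in 36 of the 68 (52.9%) and in 20.9% of all promoters, and all 3 in 2 (2.94%), ATP5PF and SDHB, and in 0.0795%, or 12 promoters. ATP5PF encodes a subunit of the ATP synthase stalk, and SDHB the iron-sulfur subunit of complex II. The 250 bases before their starts are printed with these 3 cores in capitals, from RefSeq (GRCh38.p14), 5′ to 3′ on the strand of the gene (chr21:25735055-25735304, minus strand, and chr1:17054033-17054282, minus strand). In ATP5PF the capitals mark NRF1, YY1 and ETS cores in that order, and in SDHB an NRF1 and an ETS core; the YY1 core of SDHB lies after the start and is not in this stretch.
ATP5PF: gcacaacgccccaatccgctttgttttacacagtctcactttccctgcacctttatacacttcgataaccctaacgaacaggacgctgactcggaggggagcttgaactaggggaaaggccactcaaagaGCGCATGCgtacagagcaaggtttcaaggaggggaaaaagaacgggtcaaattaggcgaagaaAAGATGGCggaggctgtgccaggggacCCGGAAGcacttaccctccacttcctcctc
SDHB: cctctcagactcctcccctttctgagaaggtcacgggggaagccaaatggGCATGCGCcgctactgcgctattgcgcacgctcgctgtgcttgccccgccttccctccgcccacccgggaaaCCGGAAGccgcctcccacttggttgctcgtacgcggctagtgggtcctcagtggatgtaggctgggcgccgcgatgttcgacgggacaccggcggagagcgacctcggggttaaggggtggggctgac

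These stretches were unmethylated, with 0.738% of 271 reads and 0.571% of 175 reads in ATP5PF and 0% of 658 reads and 0.661% of 1361 reads in SDHB. The NRF1 core holds a CpG, and over the 14 genes the 19 CpGs inside its matches read 0.190% of 526 reads and 1.48% of 744 reads, against 0.249% and 0.985% at the 337 CpGs outside them. The 24 CpGs inside ETS cores read 0% and 0.787%, against 0.391% and 0.878% outside. CpGs inside and outside either core thus differed by less than the replicates did.

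Some subunit genes have a further start in the promoter table, and 9 had several. ATP5F1A has a start 5931 bp upstream of the one used that was also open, with 4.70% and 3.42% methylation and a peak signal of 1246, above the 564 at the start used. The upstream start of COX7A2, 6497 bp away with 3 CpGs, read 100% of 9 reads and 100% of 8 reads and had no peak. That of COX7A2L, 7740 bp away with 7 CpGs, read 0% of 2 reads and 73.9% of 23 reads and had no peak either. That of NDUFC1, 1317 bp away, read 0% of 78 reads and 0% of 107 reads, again without a peak.

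Replicate 2 read higher than replicate 1 at 66 of the 77 subunit genes (85.7%) and at 85.2% of all measured genes. With Fisher's exact test per gene, two-sided, and Benjamini-Hochberg adjustment over 14113 genes, 12 of the 77 (15.6%) passed at 0.05, against 30.1% of all measured genes, and all 12 were higher in replicate 2. COX7A2L (adjusted p = 0.00204, 0.351% and 1.59%), ATP5F1C, the central stalk subunit (0.00278, 0.178% and 1.21%), COX8A (0.00633, 0.419% and 2.26%) and COX5A (0.00975) had the lowest adjusted p of Fisher's exact test. The others were ATP5MC1 (0.0178), ATP5IF1 (0.0180), UQCRQ (0.0181), ATP5F1E (0.0224), NDUFS4 (0.0230), NDUFB9 (0.0335), NDUFV3 (0.0347) and ATP5MC2 (0.0480) by the same exact test. UQCRQ, of complex III, read 0.424% and 1.54%, and ATP5F1E, the epsilon subunit of the ATP synthase, 0.428% and 1.48%. NDUFB9, an accessory subunit of complex I, read 0.179% and 1.75%, and NDUFV3, another accessory subunit, 0.950% and 2.17%. NDUFS4 had the widest gap of the 12, at 4.16 points. Reads at neighbouring CpGs of a fragment are not independent, which makes these p-values too small. A chi-square comparing the proportions of the replicates was also computed per gene. It was divided by its mean over all measured genes, 5.09, taken as the overdispersion between the replicates. With this divided chi-square no gene of either set passed after adjustment. By the same chi-square no subunit gene had an unadjusted p under 0.05, against 402 of the 14113 measured genes. That share is too low to set 77 genes apart.

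The genes around the pathway were read the same way. All 51 assembly factors, which build the complexes without being part of them, were under 20% in both replicates (medians 0.341% and 1.27%), near the 92% of all measured genes, and 49 had a peak, against 64.8% of all genes with a start. The 2 without one were COA1 (0% and 0.573%) and SURF1 (0.302% and 1.12%), both factors of complex IV assembly. Cytochrome c (CYCS) and cytochrome c1 (CYC1) were open and under 20%. CYC1 is itself a subunit of complex III whose symbol falls outside the rule. It read 0.813% and 1.43%. Of 11 regulators of nuclear respiratory genes and mitochondrial transcription, 10 had a peak, against 64.8% of all genes with a start. The same 10 were under 20% (medians 0.317% and 0.968%), beside 92% of all measured genes. The exception was PPARGC1B, a coactivator, with 90.9% of 11 reads and 85.7% of 28 reads and no peak within 1000 bp; with 11 reads in replicate 1 it was below the read minimum.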

How the data were processed

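The tables the authors deposited for the replicates have no header and list, per CpG, a methylation fraction (0 to 1) and the count of covering reads; uncovered CpGs stand at a fraction of 0 and add nothing here. The authors also deposited 1 peak list with a score capped at 1000 (not used), a peak signal, summits and the −log10 of the q-value (used in an alternative). Trim Galore, Genrich and hg38 (GRCh38) are named per the submitters' processing notes; anything on the mapper, methylation caller, duplicate removal, versions or combining of replicates is not given in the sources used here. Unconverted cytosines count as methylated, which weighs most on low values.

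Methylated reads, recovered as fraction times reads (whole within 0.001 at all covered CpGs), were summed within 500 bp of the start, with at least 20 reads per replicate. A read counts at each CpG it covers, so Wilson intervals are too narrow. Where the promoter table lists several starts, that with most CpGs was used. Peaks counted by summits within 1000 bp. The genes, the isoform pairs, pathway lists, markers and motifs were chosen with earlier results of these data known. Full values are given for isoforms and partners, for genes without a peak, not measured, at 20% or more or called between replicates, and for the 3 highest and lowest in peak signal or methylation; other subunit genes were named for their roles or after their values were seen. Counts stand beside the share over all genes, and no list was tested. Fisher's exact test per gene was also run on simulated data. Python 3.11.15, numpy 2.4.6, pandas 2.3.3, scipy 1.17.1, statsmodels 0.14.6 and matplotlib 3.10.9 were used.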

Additional observations from a re-analysis of the deposited data

How the results depend on the processing

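Of 55 recomputed values, 42 kept their direction and moved by less than the SD between replicates or, for counts, by less than 1.5 times. That SD is wide for the median start methylation (0.633) and narrow for the downstream difference (2.29). Leaving out either of 2 replicates always moves their mean by less than this SD. For means over the replicates, that part of the count was thus fixed in advance and is no support. The median start methylation of the subunit genes (1.04%) was 2.64% within 1000 bp and 1.95% with each CpG weighted equally, and ranged from 0.590% to 1.48% when either replicate was left out. The count under 20% (75) was 75 and 75 without either replicate. The median isoform difference, 42.0 points over 2 pairs (84.8 and −0.746), depends on which pairs have reads: it was 75.5 within 1000 bp, 71.2 with at least 10 reads (4 pairs) and 81.0 when every start was set at the richer gene end by CpGs, and 40.4 to 43.6 without either replicate. It reversed to −0.746 with at least 50 reads and to −0.175 over CpGs with at least 5 reads, since COX4I2 drops out of both and COX6B2 with COX6B1 is the pair left. With summits within 500 bp, 0 of 6 isoforms had a peak (1 at 1000 bp, COX6B2 at 530 bp). Calls between replicates (12) became 4 at an adjusted p of 0.01, 33 within 1000 bp and 0 after division by the overdispersion (Fisher's exact test otherwise). The downstream difference of 55.0 points was 52.4 with starts of the promoter table only, 57.7 among genes without a divergent start, and 53.4 to 56.6 without either replicate. Alternatives for it, leaving out altered CpGs, the outermost start and shared starts counted once were added after the data were seen. No paired analysis was possible because there is 1 group. Depth limits the closed isoforms most: 15 to 94 reads carry each value.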
